A study of Homo sapiens with 12 samples.

Results

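The DNA replication and S phase genes are 34 genes whose products license replication origins, unwind and copy DNA, supply its nucleotides and package the new strands. They were chosen as the rows of the deposited count table that carry these 34 gene names, out of 57169 genes in all, and every one of the 34 was found. RNA was measured in 12 tumour libraries, 6 from xenografts with a RING1B knock-down and 6 from control xenografts that the labels call wild-type. The tumours of all 12 libraries were grown from SK-ES1, an established human Ewing sarcoma cell line, so both groups share the background of 1 line. The labels give neither the agent of the knock-down nor a control construct, the host animal, the time of growth or the age of the host. Libraries were made with a stranded kit for polyadenylated RNA.

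Before S phase, the licensing factors CDC6 and CDT1 load the MCM2 to MCM7 ring, the core of the replicative helicase, onto origins. CDC45 and the GINS complex then turn the loaded ring into an active helicase, DNA polymerase alpha with its primase starts each strand, and the PCNA clamp, loaded by replication factor C, holds the later polymerases on DNA. Most of these genes are transcribed late in G1 and in S phase under E2F factors, and their RNA is commonly read as a sign of how many cells of a tumour divide. RING1B, encoded by RNF2, is the ubiquitin ligase subunit of Polycomb repressive complex 1, and the study asked what it does in Ewing sarcoma.

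Promoters are shown here because E2F sites are the sequence feature through which the 34 genes are best known to be switched on together. RefSeq promoter windows on GRCh38.p14, from 250 bases before to 50 after a transcription start, were found for 30 of the 34 members, with 38 windows in all. The E2F motifs TTTCCCGC, TTTGGCGC, TTTCGCGC and TTTGCCGC were searched on both strands. At least 1 of them lay in 20 of the 38 member windows (52.6%), in 20 of 77 windows of other replication genes (26.0%), for 56 of 70 such genes with a window, and in 1164 of 35116 windows of all genes (3.31%). By gene, 19 of the 30 members had a match. The following stretches of 60 bases, read 5′ to 3′ on the strand of the gene, come from promoters of the MCM ring, of other members with low p-values, and of PCNA and E2F1. Each is placed around the match closest to the start, with the motif letters in capitals.
MCM2, chr3:127598371-127598430, plus strand: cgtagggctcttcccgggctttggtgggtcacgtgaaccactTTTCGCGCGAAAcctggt
MCM3, chr6:52284723-52284782, minus strand: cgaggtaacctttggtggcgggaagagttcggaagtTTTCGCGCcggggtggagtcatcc
MCM6, chr2:135876496-135876555, minus strand: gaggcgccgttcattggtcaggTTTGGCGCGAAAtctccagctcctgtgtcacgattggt
MCM7, chr7:100101378-100101437, minus strand: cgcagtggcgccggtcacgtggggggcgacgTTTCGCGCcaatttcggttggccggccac
GINS3, chr16:58392431-58392490, plus strand: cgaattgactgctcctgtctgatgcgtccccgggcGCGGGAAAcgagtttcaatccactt
POLA1, chrX:24693755-24693814, plus strand: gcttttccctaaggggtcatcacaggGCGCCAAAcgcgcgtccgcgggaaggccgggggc
TYMS, chr18:657588-657647, plus strand: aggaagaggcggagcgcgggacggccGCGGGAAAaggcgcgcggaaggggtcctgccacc
PCNA, chr20:5126648-5126707, minus strand: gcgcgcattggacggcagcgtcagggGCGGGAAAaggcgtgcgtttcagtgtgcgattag
E2F1, chr20:33686372-33686431, minus strand: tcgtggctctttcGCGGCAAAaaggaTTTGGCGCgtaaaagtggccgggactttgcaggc

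The MCM2 and MCM6 stretches each hold a pair of matches on opposite strands that share their central GCGC, and the MCM6 window holds 4 matches in all, the most of any member. The E2F1 stretch holds 2 separate matches, in the promoter of the gene for an E2F factor itself. Of 27 matches in the member windows, 15 began within 50 bases of the start. No match to these letters was found in the windows of CDC45, CHAF1A, CHAF1B, FEN1, PRIM1, RFC2, RFC4, RFC5, RRM1, RRM2 and SLBP. The CCAAT box, searched on both strands, lay in 23 of the 38 member windows (60.5%), in 50.6% of the windows of other replication genes, in 88.9% of those of G2 and mitosis markers and in 34.6% of all windows. By gene it was found for 56.7% of the members, 64.3% of the other replication genes and 39.7% of all genes. A match is a run of letters and not a measured binding site.

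The knock-down was checked in RNF2, the targeted gene. RNF2 had 12.4, 18.4 and 23.4 CPM in the lowest, median and highest knock-down library, against 37.5, 49.2 and 57.9 CPM in control. CPM are counts scaled to a common library total, with factors of the trimmed mean of M values (TMM). The groups did not overlap, and RNF2 averaged 17.7 ± 4.56 CPM in knock-down and 47.6 ± 8.44 CPM in control (SD, n = 6 each). Its log2 fold change, knock-down over control throughout, was −1.43 with a standard error (SE) of 0.174 (edgeR adjusted p = 0.00347). Library totals ran from 23859184 to 26678325 counts, and 16519 genes passed the filter on low counts. All 34 members passed it, with 269 to 13374 counts per member and library. The library titles carry 8 numbers, 4 of them on 2 libraries of the same group, and the labels do not say what a number marks. Whether each library is a tumour of its own animal is not stated. The n of 6 therefore counts libraries, and the p-values cover only the spread seen here, part of which may be technical.

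No replication gene passed the test. Of the 34 members, 0 were called higher or lower in knock-down at an edgeR adjusted p below 0.05, where 0.297% of all genes tested were called, 20 genes lower (0.121%) and 29 higher (0.176%). DESeq2 and limma-voom called 0 members too, with 1.75% and 0.339% of all genes called. At an unadjusted p below 0.05 there were 6 members by each of the 3 tools, or 17.6% of the members, and edgeR placed 12.7% of all genes there. These 6 were FEN1, GINS4, TYMS, RRM1, POLA1 and MCM4 with each tool, and all had negative fold changes. By edgeR, 5.21% of all genes had an unadjusted p below 0.05 and a negative fold change. In none of the 34 members were the knock-down and control libraries apart, which was the case for 1.22% of all genes (0.575% with knock-down below control). Fewer dividing cells and less RNA of these genes per cell cannot be told apart in bulk tumour RNA.

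The fold changes of the members lay on the negative side more often than those of all genes, within a narrow range. Values were negative for 26 of 34 members, with a median of −0.10, while 47.6% of all genes tested were negative, with a median of 0.01. Among the 8531 tested genes at the expression levels of the members, 49.7% were negative and the median was 0.00. Member values ran from −0.44 for MCM2 to 0.24 for LIG1, and edgeR adjusted p-values from 0.217 to 0.994. The 95% interval of the fold change lay within a 2-fold change either way for 33 members, all but MCM2. It lay within a 1.5-fold change for 28, and the 6 others were MCM2, MCM7, GINS4, FEN1, LIG1 and TYMS. SEs ran from 0.0861 to 0.289 with a median of 0.131. Summed over the 34 genes, the lowest, median and highest knock-down library had 3558, 4172 and 4522 CPM, against 4072, 4466 and 5101 CPM in control.

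**Figure D1:**
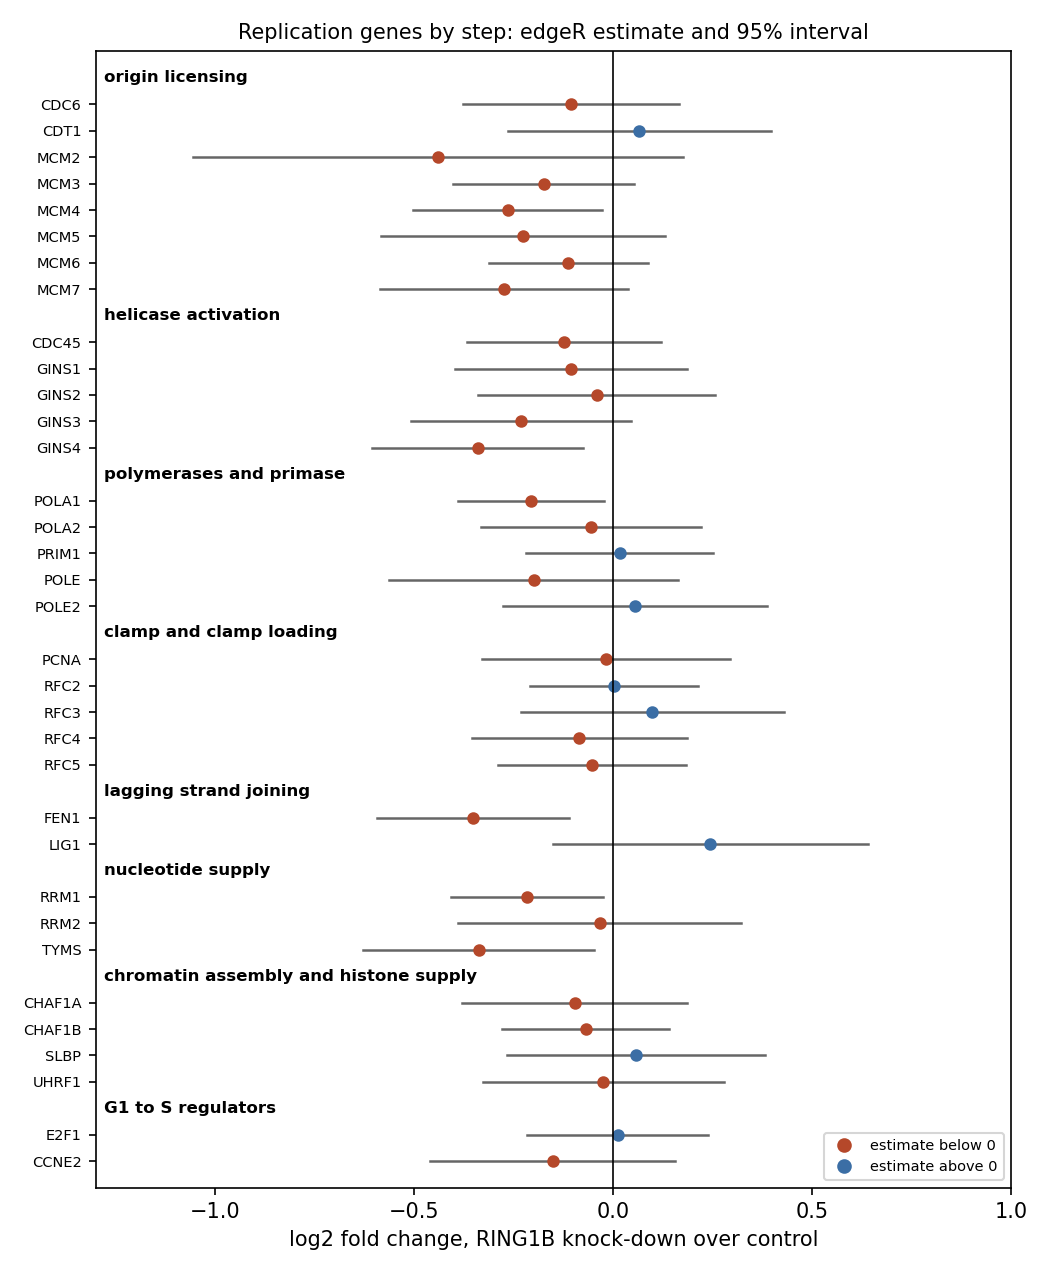
Log2 fold change of each of the 34 genes, knock-down over control, with its 95% interval on the x axis, grouped by step of replication. Points are estimates of edgeR, of which 26 of 34 lie left of 0, with no gene called.

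Origin licensing held the most negative fold change of the members, that of MCM2. Of its 8 members 7 were negative and 0 called, with a median of −0.20, and the 6 genes of the MCM ring were all negative, with a median of −0.25 and edgeR adjusted p-values from 0.341 to 0.650. Library totals or other scaling factors turned none of these 6 signs. MCM4, a ring subunit, had 287, 394 and 442 CPM in the lowest, median and highest knock-down library, against 407, 459 and 518 CPM in control. All 6 knock-down libraries were below the control median, while the groups overlapped between 407 and 442 CPM. MCM4 averaged 383 ± 59.5 CPM in knock-down and 460 ± 39.8 CPM in control (SD, n = 6 each), a log2 fold change of −0.27 (SE 0.111, edgeR adjusted p = 0.341).

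MCM7, another ring subunit, ran over 223, 336 and 375 CPM in knock-down, against 261, 402 and 459 CPM in control (lowest, median, highest). The log2 fold change of MCM7 stood at −0.28 (SE 0.146, edgeR adjusted p = 0.455). Above its lowest library the next was at 293 CPM in knock-down and at 386 CPM in control. MCM3 had 272, 348 and 373 CPM in knock-down, against 316, 371 and 444 CPM in control, with a log2 fold change of −0.17 (SE 0.107, edgeR adjusted p = 0.521). The knock-down and control ranges of MCM3 overlapped between 316 and 373 CPM. MCM5 and MCM6, the remaining ring subunits, had log2 fold changes of −0.23 and −0.11, that of MCM5 running from −0.34 to −0.15 with 1 library left out.

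MCM2, at chr3:127598223-127622436 on the plus strand of hg38, differed most between libraries of any member, with 4.38 times more CPM in the highest library than in the lowest. It had 60.7, 154 and 252 CPM in the lowest, median and highest knock-down library, against 93.9, 228 and 266 CPM in control. The low ends were knockdown 5, with the next knock-down library at 127 CPM, and control 6, with the next control library at 217 CPM. The log2 fold change of −0.44 had an SE of 0.289 and a 95% interval from −1.06 to 0.18 (edgeR adjusted p = 0.547). It was −0.59 without control 6 and −0.27 without knockdown 5. CDC6, which takes part in loading the ring, had 49.9, 55.3 and 62.9 CPM in the lowest, median and highest knock-down library, against 47.0, 58.1 and 77.5 CPM in control. It averaged 55.3 ± 5.15 CPM in knock-down and 59.5 ± 11.9 CPM in control (SD, n = 6 each). CDT1, its partner in loading, was the only licensing member with a positive fold change, 0.07, and its groups overlapped almost fully.

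All 5 helicase activation genes had negative fold changes, with a median of −0.12 and 0 called. GINS4, a GINS subunit, had 13.7, 15.6 and 21.2 CPM in the lowest, median and highest knock-down library, against 19.2, 21.2 and 22.6 CPM in control. Control libraries were close together while knock-down libraries spread below and into their range. GINS4 averaged 16.6 ± 3.11 CPM in knock-down and 21.0 ± 1.33 CPM in control (SD, n = 6 each), a log2 fold change of −0.34 (SE 0.125, edgeR adjusted p = 0.279). GINS3 ran over 16.0, 19.9 and 24.8 CPM in knock-down, against 20.5, 22.6 and 29.2 CPM in control, with a log2 fold change of −0.23 (edgeR adjusted p = 0.482). GINS1 had 45.9, 68.6 and 83.5 CPM in knock-down, against 63.9, 69.7 and 89.0 CPM in control, the control values being close together except for control 6. The remaining log2 fold changes were −0.11 for GINS1, −0.04 for GINS2 and −0.12 for CDC45, the GINS partner in the active helicase. CDC45 had 61.5, 75.5 and 79.2 CPM in the lowest, median and highest knock-down library, against 61.6, 76.0 and 95.9 CPM in control. It averaged 72.5 ± 7.61 CPM in knock-down and 79.0 ± 12.1 CPM in control (SD, n = 6 each).

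Of 5 polymerase and primase genes 3 were negative, with a median of −0.06 and 0 called. POLA1, the catalytic subunit of polymerase alpha, at chrX:24693919-24996986 on the plus strand of hg38, had 72.2, 76.2 and 80.8 CPM in the lowest, median and highest knock-down library, against 79.0, 85.9 and 102 CPM in control. The knock-down libraries lay closer together than for any other member, and they overlapped the control range between 79.0 and 80.8 CPM. POLA1 averaged 76.2 ± 2.81 CPM in knock-down and 88.0 ± 8.75 CPM in control (SD, n = 6 each), a log2 fold change of −0.21 (SE 0.0861, edgeR adjusted p = 0.339). Its two-sided exact permutation p of 0.00433 was the lowest of the 34 members, unadjusted, where the smallest p that 6 against 6 can give is 0.00216. POLA2, the regulatory subunit of polymerase alpha, averaged 14.7 ± 1.66 CPM in knock-down and 15.3 ± 2.43 CPM in control (SD, n = 6 each), so the subunits of the enzyme had fold changes of −0.21 and −0.06. POLE, the leading strand polymerase, was at −0.20 with ranges of 134 to 256 CPM in knock-down and 150 to 268 CPM in control, and at −0.30 to −0.11 with 1 library left out. PRIM1, the catalytic primase subunit, and POLE2, a subunit of polymerase epsilon, were at 0.02 and 0.05. PRIM1 had 30.5, 33.96 and 40.7 CPM in the lowest, median and highest knock-down library, against 28.9, 33.4 and 39.3 CPM in control, which is nearly the same range.

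The clamp genes among the members were near 0. PCNA had 221, 256 and 383 CPM in the lowest, median and highest knock-down library, against 245, 274 and 349 CPM in control. The knock-down range enclosed the control range, and the log2 fold change was −0.02 with a 95% interval from −0.33 to 0.29 (edgeR adjusted p = 0.977). The RFC2 to RFC5 genes, subunits of the clamp loader, had fold changes of 0.00, 0.10, −0.08 and −0.05, and 0 of the 5 clamp genes had an unadjusted p below 0.05. RFC5 ran over 67.2, 79.6 and 106 CPM in knock-down, against 78.5, 81.1 and 94.95 CPM in control (lowest, median, highest), the knock-down range again enclosing that of control.

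The lagging strand genes, which are FEN1 and LIG1, had opposite signs. FEN1 encodes the nuclease that trims the flaps of Okazaki fragments and lies at chr11:61792637-61797244 on the plus strand of hg38. It had 126, 162 and 172 CPM in the lowest, median and highest knock-down library, against 154, 201 and 233 CPM in control. The highest knock-down library was below the control median, and the ranges overlapped between 154 and 172 CPM. FEN1 averaged 156 ± 18.7 CPM in knock-down and 199 ± 26.7 CPM in control (SD, n = 6 each), a log2 fold change of −0.35 (SE 0.113). Its edgeR adjusted p of 0.217 was the lowest of the 34 members, with an unadjusted p of 0.00704. LIG1, the ligase that joins the fragments, ran over 32.5, 71.0 and 84.4 CPM in knock-down, against 43.0, 57.2 and 65.7 CPM in control. Its log2 fold change of 0.24 (SE 0.186, edgeR adjusted p = 0.613) was the highest of any member, and it was 0.39 without knockdown 5, the lowest library.

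All 3 nucleotide supply genes had negative fold changes, with a median of −0.22 and 0 called. TYMS, thymidylate synthase, at chr18:657604-673578 on the plus strand of hg38, had 47.4, 69.7 and 87.9 CPM in the lowest, median and highest knock-down library, against 71.5, 90.4 and 96.5 CPM in control. The highest knock-down library was again below the control median. TYMS averaged 68.4 ± 13.8 CPM in knock-down and 86.4 ± 10.5 CPM in control (SD, n = 6 each), a log2 fold change of −0.34 (SE 0.136, edgeR adjusted p = 0.322). RRM1, the large subunit of ribonucleotide reductase, had 166, 179 and 220 CPM in knock-down, against 196, 213 and 232 CPM in control (lowest, median, highest). RRM1 had a log2 fold change of −0.22 (SE 0.0898, edgeR adjusted p = 0.333). RRM2, the small subunit of the same enzyme, was at −0.03, with 152, 173 and 267 CPM in knock-down, against 156, 195 and 273 CPM in control. The RRM2 groups overlapped almost fully.

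**Figure D2:**
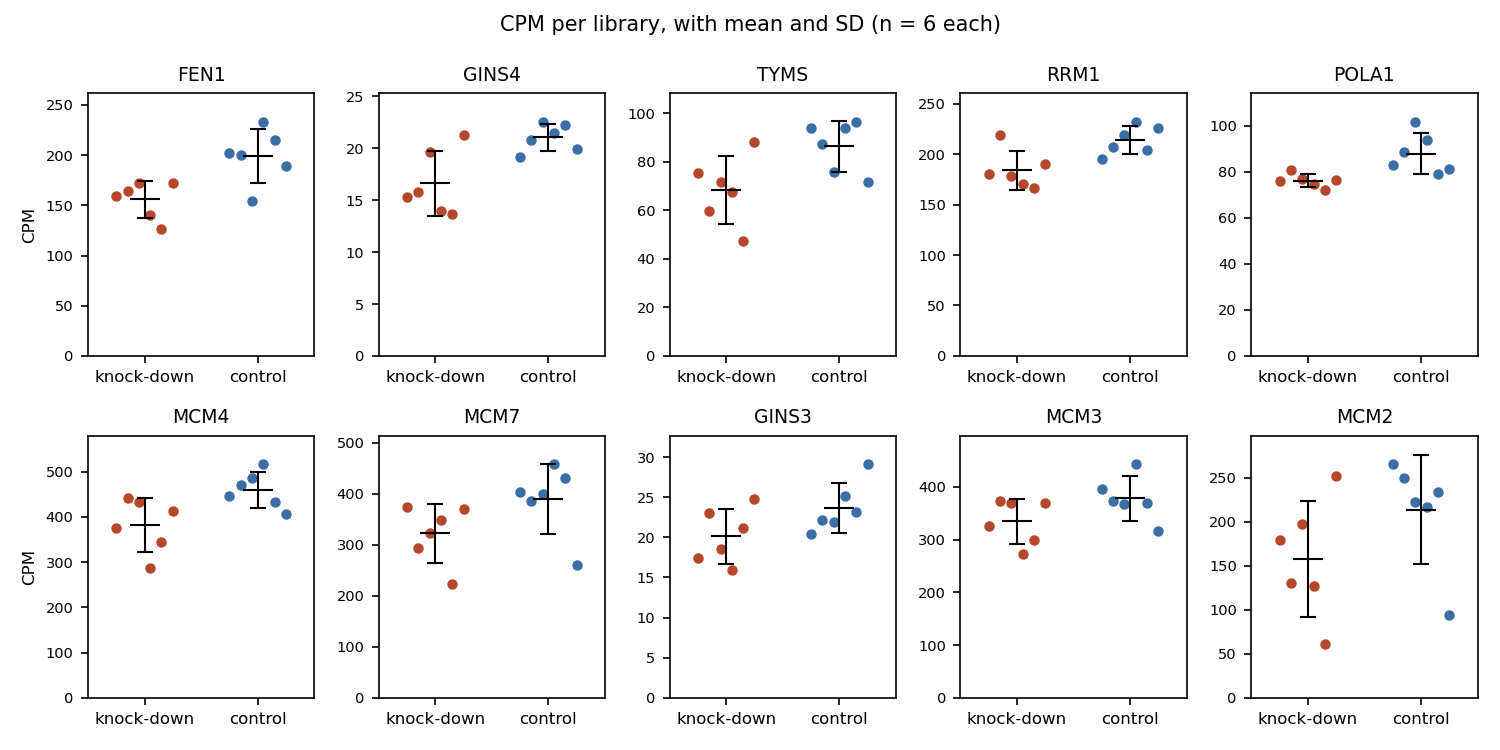
CPM (linear axis from 0) of the 10 members with the smallest p-values in each of the 6 knock-down (left) and 6 control (right) libraries, where points are libraries and bars the mean with the SD. The groups overlap for each gene, and MCM2 has a low point at 60.7 CPM in knock-down and at 93.9 CPM in control.

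Chromatin assembly genes and G1 to S regulators showed 0 calls and medians of −0.05 and −0.07. CHAF1A and CHAF1B, subunits of the factor that deposits histones behind the fork, were at −0.10 and −0.07. CHAF1B had 47.4, 52.4 and 65.0 CPM in knock-down, against 50.5, 54.3 and 64.0 CPM in control. The ranges of CHAF1B differed by little at either end. SLBP, which binds the stem loop of histone RNA, had 96.8, 166 and 197 CPM in the lowest, median and highest knock-down library, against 140, 144 and 175 CPM in control, a log2 fold change of 0.06. UHRF1, which brings the maintenance DNA methyltransferase to new strands, was at −0.02, with 34.6, 56.1 and 60.0 CPM in knock-down, against 43.5, 52.3 and 63.5 CPM in control. For SLBP and UHRF1 the lowest of the 12 libraries was in knock-down, while the median was higher in knock-down. E2F1, the transcription factor, had 85.9, 110 and 117 CPM in knock-down, against 89.4, 104 and 127 CPM in control. It averaged 106 ± 10.9 CPM in knock-down and 106 ± 13.96 CPM in control (SD, n = 6 each), a fold change of 0.01. CCNE2, a cyclin of the entry into S phase, had 11.4, 16.3 and 23.1 CPM in knock-down, against 17.3, 18.8 and 19.5 CPM in control. Its log2 fold change was −0.15, and −0.28 to −0.06 with 1 library left out. CCNE2 averaged 16.7 ± 4.01 CPM in knock-down and 18.6 ± 0.895 CPM in control (SD, n = 6 each), so the knock-down libraries lay both above and below the control range. The coefficient of variation of POLA1 was 3.69% in knock-down and 9.95% in control, the other way round. This coefficient was wider in knock-down for 25 of 34 members, and no test of the spread was made.

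Levels between genes were compared per length, as RPKM, the TMM-scaled CPM divided by the kilobases of exon of the gene. PCNA had the highest level of the 34, with 195 RPKM as the mean over the 12 libraries, and was highest in 12 of 12. POLA2 had the lowest mean level, 2.62 RPKM, and was lowest in 11 of 12, so the range from the lowest to the highest mean was 74.4-fold. Within the MCM ring the mean levels were 97.7 RPKM for MCM3, 81.2 for MCM7, 60.4 for MCM4, 50.4 for MCM6, 37.9 for MCM2 and 28.8 for MCM5. MCM7 was above MCM4 in 12 of 12 libraries, MCM3 above MCM7 and MCM4 above MCM6 in 11 each, MCM2 above MCM5 in 10 and MCM6 above MCM2 in 9. MCM5 was lowest of the ring in 10 libraries and MCM2 in 2.

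The subunits of other complexes were unequal too. Mean levels in the GINS complex were 17.1 RPKM for GINS1, 15.8 for GINS2, 4.29 for GINS3 and 3.44 for GINS4, and GINS4 was lowest in 12 of 12 libraries. GINS1 and GINS2 changed places, with GINS1 higher in 9. In the clamp loader RFC2 was at 43.2 RPKM and highest in 12 of 12, RFC4 was at 33.6, and RFC3 and RFC5, at 26.0 and 25.7, were each above the other in 6. POLA1 had a mean level of 13.0 RPKM, above POLA2 in each library, and RRM1 one of 47.7 against 37.7 for RRM2. These are levels over the summed annotated exons of a gene, so annotated exons that are not used lower them. Each gene has 1 length for all 12 libraries, so the orders of subunits, in the MCM ring too, rest on it. RFC2 and RFC4 have 2211 and 2997 bases of summed exons, against 1695 and 1448 in the longest annotated transcript. Before division by length, RFC4 averaged 97.8 CPM in knock-down and 104 in control, and RFC2 95.7 and 95.4. Orders by another length were not computed.

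**Figure D3:**
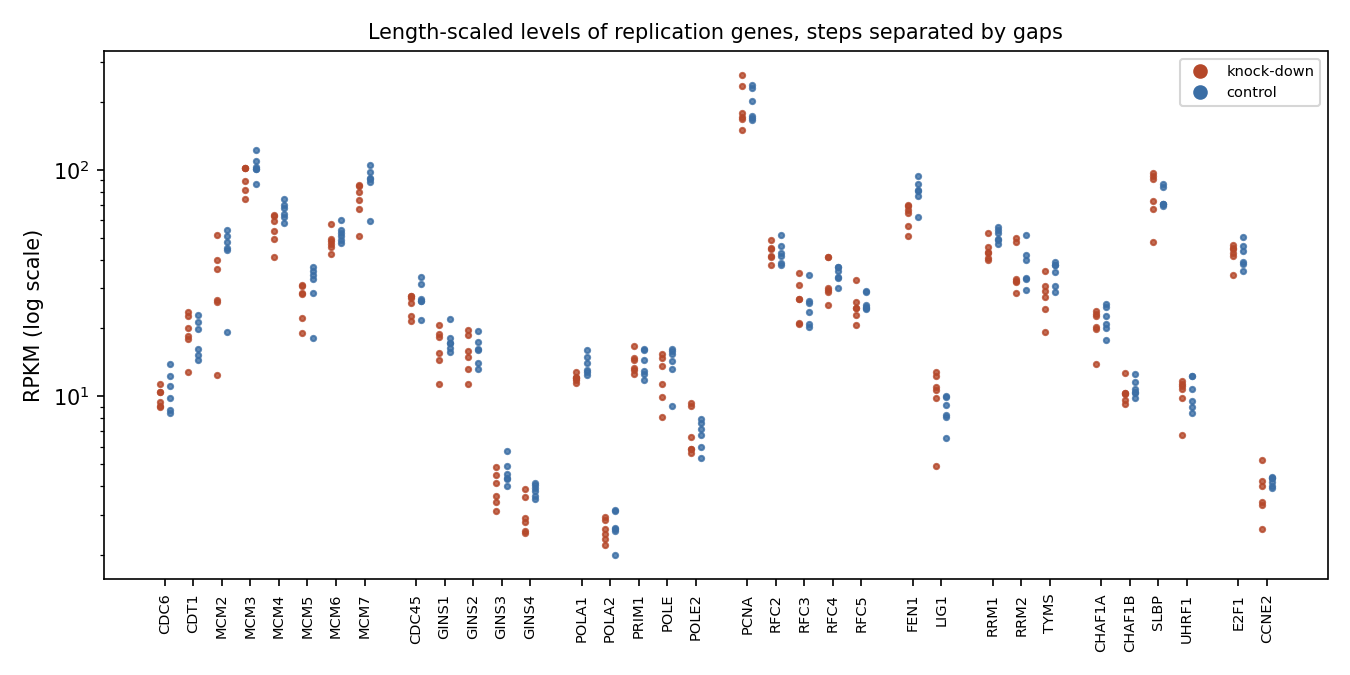
Level of each of the 34 genes per length (RPKM, log axis) in the 6 knock-down (left of each pair) and 6 control libraries, with gaps between the steps of replication. Mean levels run from PCNA at 195 RPKM to POLA2 at 2.62 RPKM, and the groups overlap for every gene.

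Much of the spread of the members followed single libraries. Knockdown 5 was the lowest of the 12 libraries for 15 members and knockdown 4 for 12, so together they held the lowest value of 27 of 34. Control 4 was above the mean of the 12 libraries for 34 of 34 members and the highest for 10, and knockdown 2 was the highest for 7. The median log2 deviation of the 34 members from their mean over 12 libraries ran from −0.22 in knockdown 4 and knockdown 5 to 0.11 in knockdown 2, against −0.01 in control 1 to 0.22 in control 4. Knockdown 4 also had the lowest mean correlation with the other libraries over all genes, 0.953. Without knockdown 4 the median fold change of the members was −0.07, with 23 of 34 negative. Without control 4 it was −0.08, also with 23 negative, and without knockdown 2 it was −0.15 with 30 negative. Without control 6, knockdown 4 and knockdown 5 together it was −0.06, with 23 negative and 0 called.

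**Figure D4:**
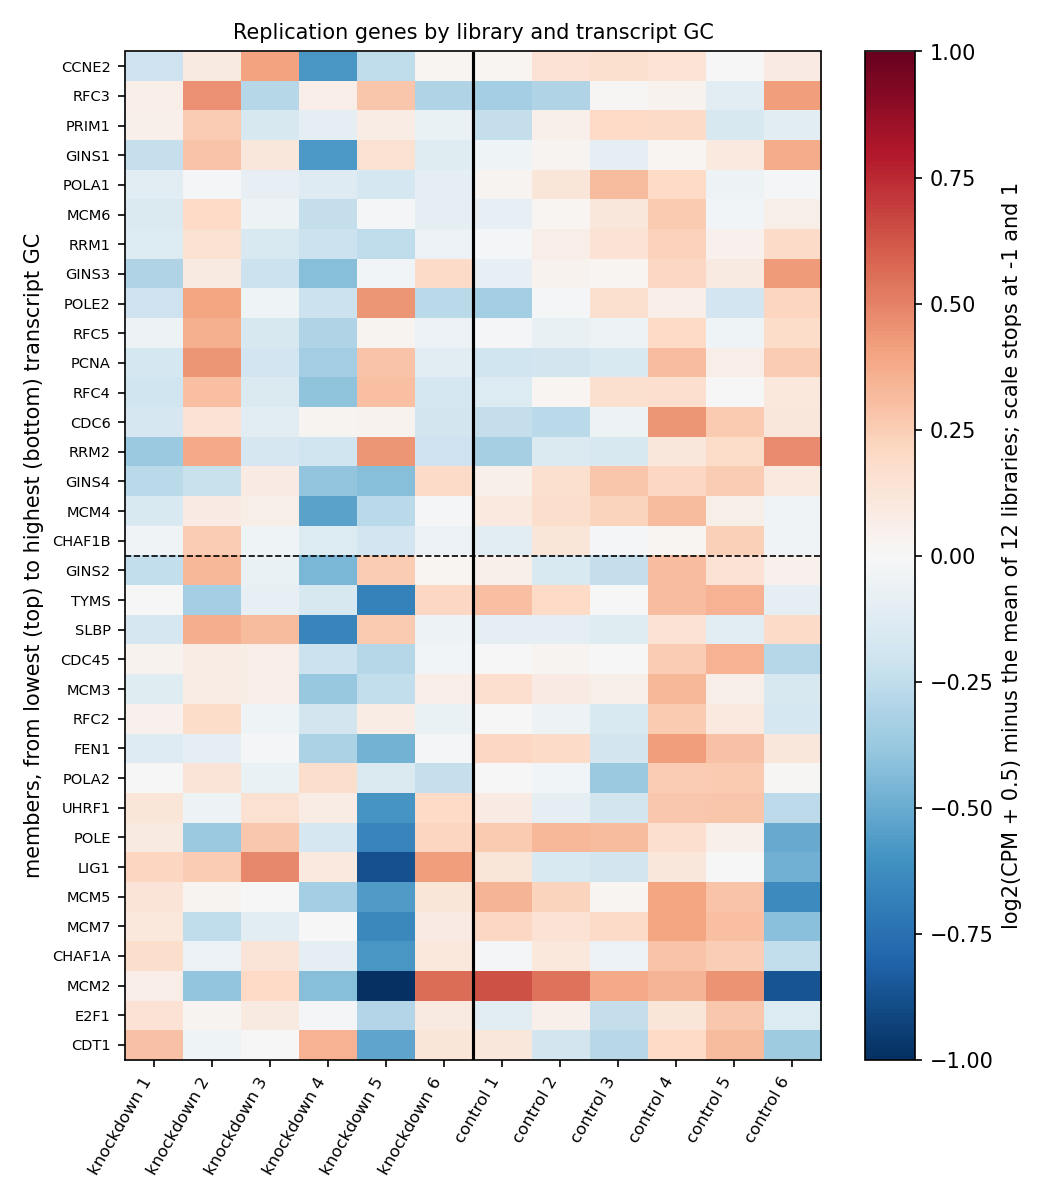
Log2 deviation of each of the 34 genes from its mean over 12 libraries, by library (columns, knock-down left and control right), with genes in rows from the lowest transcript GC content at the top to the highest at the bottom. The color scale stops at −1 and 1. Knockdown 4 and knockdown 5 hold the lowest value of 27 of the 34 genes, and control 4 is above the mean for all 34.

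A gene has only 1 lowest library, so the following lists for knockdown 5 and knockdown 4 cannot share a member. Knockdown 5 was lowest for CDT1, MCM2, MCM7, CDC45, GINS4, POLA1, POLE, FEN1, LIG1, RRM1, TYMS, CHAF1A, CHAF1B, UHRF1 and E2F1. Knockdown 4 was lowest for MCM3, MCM4, MCM6, GINS1 to GINS3, PCNA, RFC2, RFC4, RFC5, SLBP and CCNE2. The members were divided by the GC content of their longest annotated transcript into 17 with higher GC, 49.1% to 64.9%, and 17 with lower GC, 36.9% to 48.7%. In knockdown 5 the median deviation was −0.52 for the members of higher GC and 0.03 for those of lower GC. In knockdown 4 it was −0.17 and −0.24, with 13 of 17 and 15 of 17 members below their own mean. In control 6 it was −0.24 and 0.11, whereas in control 5 it was 0.27 and 0.04, and in knockdown 1 it was 0.06 and −0.17.

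Across the 34 members the correlation of GC content with the deviation was −0.63 in knockdown 5, 0.69 in knockdown 1, −0.72 in control 6 and 0.65 in control 5. Across all 16515 tested genes with a GC value it was −0.42, 0.38, −0.48 and 0.38 in the same libraries. These describe genes of 1 library, which share its preparation and depth and are not replicates. Mitochondrially encoded genes took 10.01% of the counts in knockdown 5 and 5.55% to 8.42% in the other knock-down libraries, against 14.4% in control 6 and 4.65% to 7.08% in the other control libraries. MCM2, at 58.1% GC, had deviations of −1.49 in knockdown 5 and −0.86 in control 6. The part of GC content in these deviations was not tested, and the following measurement is a description.

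With the trend of each library with GC content removed, the median within-group SD of the members was 0.183 in place of 0.232, smaller for 28 of 34. Over all tested genes it was 0.238 in place of 0.273. The trend was fitted to the same values from which it was removed, so some narrowing is built in. The fold changes then were negative for 28 members, with a median of −0.11, 0 called and a lowest adjusted p of 0.106 for FEN1 (edgeR). Without that step, the median fold change was −0.10 for the members of higher GC, 12 of 17 negative, and −0.11 for those of lower GC, 14 of 17 negative.

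**Figure D5:**
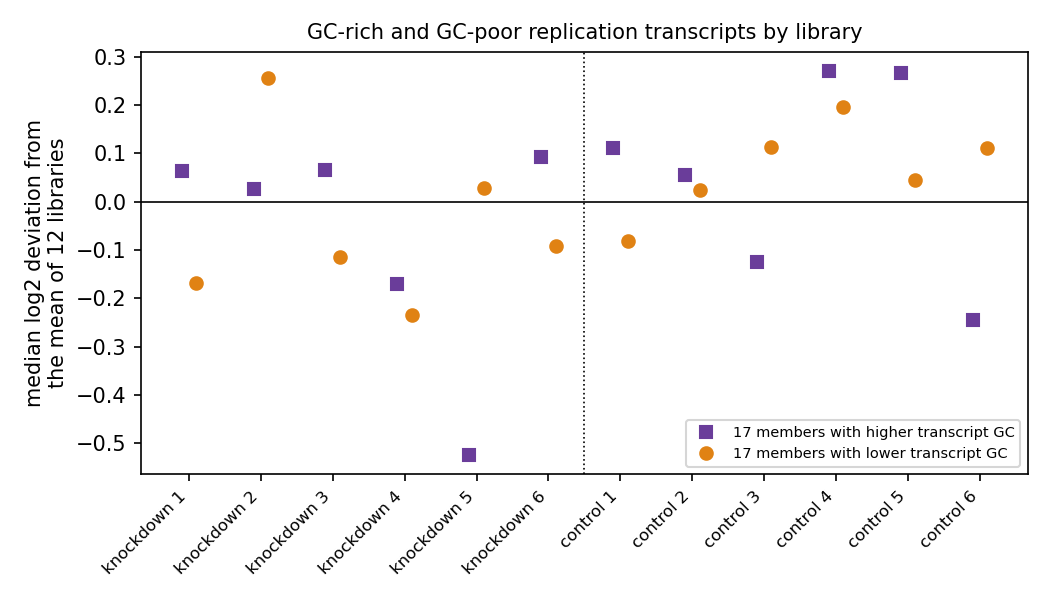
Median log2 deviation from the mean over 12 libraries of the 17 members with higher and the 17 members with lower transcript GC content, in each knock-down (left) and control (right) library. Knockdown 5 and control 6 have the members of higher GC far below those of lower GC, at −0.52 against 0.03 and −0.24 against 0.11.

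Library titles carry the letter D or E, whose meaning the labels do not give, with 4 knock-down and 2 control libraries for D and 2 knock-down and 4 control libraries for E. Within D, 25 members were negative with a median of −0.17 and a lowest edgeR adjusted p of 0.419. Within E, 30 members were negative with a median of −0.16 and a lowest edgeR adjusted p of 0.934. A negative value in both was found for 21 of 34 members. The sign differed from that over all 12 libraries for 9 members within D, LIG1 at −0.03 among them, and for 6 within E. RNF2 itself was at −1.37 within D and −1.69 within E and was not called in either (edgeR adjusted p = 0.135 and 0.552).

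The other genes of replication, 70 in all and all tested, were closer to 0. Of these 43 were negative, with a median of −0.05, and 0 were called by edgeR. Its F test gave 8 of the 70 (11.4%) an unadjusted p under 0.05, and all 8 had negative fold changes. Among all genes tested, 5.21% had such a p with a negative fold change, and 12.7% had it in either direction. Among the 70 genes helicase activation had the largest share, 12 of 13 negative with a median of −0.14. The clamp and clamp loading genes among them had the most negative median of any step, −0.18, with 6 of 8 negative. Other nucleotide supply genes had 3 of 8 negative. The difference between the members and these genes was not tested. WDHD1, a scaffold between helicase and polymerase alpha, had 47.3, 49.6 and 65.0 CPM in the lowest, median and highest knock-down library, against 59.4, 67.5 and 81.3 CPM in control. Its ranges overlapped between 59.4 and 65.0 CPM, with a log2 fold change of −0.42 (SE 0.110, edgeR adjusted p = 0.143). The 7 others were at −0.37 for MCM9 and ORC1, −0.28 for RPA1, −0.29 for MCM8, −0.25 for TOPBP1, −0.49 for E2F7 and −0.48 for CLSPN, with edgeR adjusted p-values from 0.277 to 0.366. ORC1 is a subunit of the complex that marks origins, RPA1 coats single-stranded DNA, and TOPBP1 and CLSPN act in helicase activation and the replication checkpoint.

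Markers of G2 and mitosis, read beside S phase, were negative in 15 of 20 with a median of −0.07, and 0 were called by edgeR with 1 at an unadjusted p below 0.05. Their summed level was 3208, 3909 and 4401 CPM in the lowest, median and highest knock-down library, against 3686, 3975 and 4459 CPM in control. MKI67, the antigen of dividing cells, ran from 160 to 357 CPM in knock-down and from 284 to 389 CPM in control, with a log2 fold change of −0.33 (edgeR adjusted p = 0.431). This was the most negative value of the 20 markers, of which 5 were positive, up to 0.28 for CDK1. The lowest knock-down library in the G2 and mitosis sum was knockdown 4, and the highest was knockdown 2, as in the sum of the 34 members.

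Markers of other cell types overlapped between the groups. Summed leukocyte markers ran from 7.21 to 32.5 CPM in knock-down and from 5.63 to 24.9 CPM in control, highest in knockdown 4, with 4 of 9 genes above the filter. Summed fibroblast and pericyte markers ran from 414 to 1627 CPM in knock-down, also highest in knockdown 4, and from 575 to 1595 CPM in control. Endothelial markers summed to 16.97 to 26.95 CPM in knock-down and 16.7 to 26.8 CPM in control, and muscle markers to 1.48 to 17.8 CPM in knock-down and 2.95 to 27.9 CPM in control. CD163 was at 0 counts in all 6 control libraries, and CD68, CD14, VWF, MYH7 and TNNT3 were at 0 in at least 1 library of each group. These are counts of human genes in xenografts, and whether host reads were removed is not given in the sources used here. Such counts cannot tell host cells from tumour cells, and the part of host cells in the member values was not tested. Of 9 Ewing sarcoma markers 8 were above the filter, with sums of 1952 to 2242 CPM in knock-down and 1829 to 2048 CPM in control. The neuropeptide receptor gene NPY1R among them was called higher, with a log2 fold change of 0.83 (edgeR adjusted p = 0.0151). CD99, which lies in the region that the X and Y chromosomes share, was listed at 0 counts in every library.

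Promoter motifs and fold changes were set side by side as a description. The 19 members with an E2F match were negative in 14, with a median of −0.11, and the 11 without one in 8, with a median of −0.07. The 4 members with no promoter window, MCM4, MCM5, GINS4 and CCNE2, were all negative, with a median of −0.25. A gene on the other strand overlaps the span of 18 members, and a gene on the same strand overlaps that of 10, such as NACA for PRIM1. The span of FEN1 overlaps TMEM258 and FADS2, 1 on each strand. The strand setting of the counting is not given in the sources used here, so reads of such neighbours may be in these counts. Of 6 members 11 named pseudogenes are in the table, each with at most 10 counts in a library.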

How the data were processed

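Tumour RNA was measured in 6 libraries from RING1B knock-down xenografts and 6 from control xenografts. The authors deposited 1 table of raw read counts per gene, not normalised. Per the submitters' processing notes, STAR 2.6.0a, hg38, featureCounts, limma 3.40.2 and R 3.6.0 were named. The sources used here do not give the strand setting, the handling of reads with several alignments or any removal of host reads. The spans of the members matched GENCODE release 29 on hg38.

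The 34 members, the 70 other replication genes and the marker lists were chosen with earlier results of these data known. Members were given with library values if among the 10 smallest p-values, highest or lowest of their step, or far from their group, and the others by fold change. Of the 70 genes, those with the 8 smallest p-values were named, and KIF23, NPY1R, CD99 and the library values of POLE and RRM2 were added after they were seen.

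In R 4.3.3, edgeR 4.0.16 kept 16519 genes by filterByExpr, scaled them by TMM and tested knock-down against control over all of them by its quasi-likelihood F test with robust fits, without covariates, at a Benjamini-Hochberg adjusted p below 0.05. SEs were derived from the F statistic. Single values were compared by the two-sided exact permutation test over 924 divisions. Scripts were tested on simulated data. The lowest chi-square per degree of freedom between libraries of a group was 12.05, for control 1 and control 2, which share a title number. No pair of libraries in a group therefore differed by counting error alone. The value cannot tell whether libraries came from the same tumour or animal.

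Alternatives were other scalings and filters, DESeq2 1.42.0, limma-voom 3.58.1, the title letter or number in the fit, and each library left out. Leaving out control 6 with knockdown 5, and removing each library's trend with transcript GC, were added after seeing the data. RPKM use the exon lengths of the table. Promoters come from RefSeq on GRCh38.p14, and none of their coordinates was joined to hg38 counts. Counting error is largest for CCNE2, with 269 counts in its lowest library.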

Additional observations from a re-analysis of the deposited data

Results flagged for a closer look

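In 68 groups of 6 libraries, 34 genes in 2 groups, 4 had a library far from the others of its group by Dixon's test at the 95% level, which chance alone gives in about 1 of 20 groups. Control 6 had 3 of these. MCM2 had 93.9 CPM in control 6, where the next control library had 217 CPM. MCM7 had 261 CPM in control 6, with 386 CPM in the next. GINS1 had 89.0 CPM in control 6, the highest control, with 73.3 CPM in the next. CHAF1B had 65.0 CPM in knockdown 2, the highest knock-down library, with 52.9 CPM in the next.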

How the results depend on the processing

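No member was called under any alternative. The count of genes called, 49 as reported, was 343 with DESeq2, 28 with the title letter as covariate, 7 with counts summed by title number, 91 with limma-voom and the number as a random effect, 108 without control 6, knockdown 4 and knockdown 5, 109 with the GC trend removed, and 6 and 0 within letters D and E; leaving out 1 library gave 16 to 79. The cause was not tested. Negative members numbered 23 to 30, with 25 members of 1 sign in all 12 fits that leave out 1 library. Of 918 alternative values of single members 72 changed sign, 15 of them within the letters and the other 57 at most 0.0715 from 0. Within D, CDT1 was −0.22, GINS1 0.088, PCNA 0.024, RFC2 −0.084, RFC4 0.044, LIG1 −0.029, RRM2 0.18, CHAF1B 0.030 and E2F1 −0.026. Within E, PRIM1 was −0.093, POLE2 −0.31, RFC2 −0.061, RFC3 −0.14, SLBP −0.30 and UHRF1 0.19. RFC2 was −0.00609 with RLE factors, −0.014 with totals alone, −0.00700 with no filter, −0.00755 with DESeq2, −0.0615 with the letter, −0.00552 with the random effect, −0.00832 with the 3 libraries left out and −0.0436 without control 6 and knockdown 5. PRIM1 was −0.00130 with totals alone, −0.00870 with the letter, −0.016 without control 6 and knockdown 5 and −0.012 with the GC trend removed. E2F1 was −0.000662 with totals and −0.025 with the GC trend removed, and SLBP −0.061 with the letter. UHRF1 was 0.030 with summed counts, 0.021 with 3 libraries and 0.019 with 2 libraries left out. With 3 left out GINS1 was 0.021, PCNA 0.030 and RFC5 0.025. Leaving out 1 library gave −0.12 to 0.036 for GINS2, −0.037 to 0.051 for PRIM1, −0.041 to 0.10 for POLE2, −0.12 to 0.046 for PCNA, −0.035 to 0.052 for RFC2, −0.14 to 0.070 for RRM2, −0.015 to 0.17 for SLBP, −0.077 to 0.072 for UHRF1 and −0.040 to 0.066 for E2F1. A further 16 members kept their sign but moved by over 1.5 times when 1 library was left out. No paired analysis was possible because no title number occurs in both groups. Of the 8 title numbers 4 are on 2 libraries each, and whether such libraries share an animal is not stated. The fit with the number as a random effect used a correlation of −0.125 between libraries of a number. Each member had at least 269 counts per library, so depth limits the lowest members most.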
